A study of Mus musculus with 6 samples.

Results

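Genes for 3 classes of acid-base transporters were followed in stria vascularis: the subunits of the vacuolar H+-ATPase (V-ATPase), the SLC4 bicarbonate transporters and the SLC9 Na+/H+ exchangers. All probe sets were taken whose gene symbol in the annotation of the array begins with Atp6v, Atp6ap, Slc4a or Slc9a. They measure 41 of the 18193 genes with a symbol of their own on the array, 22 of the V-ATPase, 10 of SLC4 and 9 of SLC9. These genes have 94 of the 45037 probe sets, 47 for the V-ATPase, 22 for SLC4 and 25 for SLC9, and 1 of the SLC9 probe sets carries 2 symbols and is counted but not named. The prefixes also take in Slc4a1ap, Slc9a3r1 and Slc9a3r2, which code for the adaptor protein kanadaptin and for scaffolds of Na+/H+ exchangers and not for transporters. Family members for which no probe set is named in the annotation used here were not analysed.

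Stria vascularis lines the lateral wall of the cochlea and supplies endolymph with K+. Its RNA was measured on 3 Affymetrix mouse arrays from Slc26a4+/+ mice and 3 from Slc26a4-/- mice, which lack the anion exchanger pendrin and serve as a model of Pendred syndrome. The strain is given as 129S6, the mice were adult (P148 ± 3 and P153 ± 1), each array carried RNA pooled from 2 animals, and the mice were not perfused, so that the tissue held some blood. No treatment was given to either genotype, and since whole tissue was measured, fewer cells of a type and less RNA per cell cannot be told apart.

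The V-ATPase pumps protons out of the cytosol, into lysosomes, melanosomes and other organelles in all cells and across the plasma membrane in specialized acid-secreting cells. Its V1 sector hydrolyzes ATP and its membrane-bound V0 sector carries the protons. Several subunits exist as isoforms, some widespread and others restricted to kidney, brain, osteoclasts or other tissues. SLC4 proteins exchange HCO3- for Cl- or carry it together with Na+, and SLC9 proteins exchange Na+ or K+ for H+ at the plasma membrane or in organelles. Pendrin itself exchanges Cl- for HCO3-. How much acid or base any of these transporters carries in the tissue was not tested, and other routes may exist.

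Several properties of the arrays bear on the comparison. Slc26a4 read 1354, 1262 and 793 in Slc26a4+/+ against 520.2, 717 and 618.5 in Slc26a4-/- (log2 fold change -0.85, SE 0.23, limma adjusted p = 0.119). No source used here places the probes inside or outside the deletion, so this gene does not check the labels. A signal is the intensity of a probe set as scaled by the authors. Background was set on each array from 44 probe sets of olfactory receptors, as their 95th percentile, and lay between 187 and 319. A gene or probe set is called detected where 2 or more of the 3 arrays of either genotype exceeded background. By this measure 8 of 8 markers of marginal cells, 7 of 8 of intermediate cells and 5 of 5 of basal cells were detected. The Gapdh 3′/5′ ratio, which rises as RNA is degraded, was 7.19 and 10.5 on Slc26a4+/+ replicates 2 and 3 against 2.25 to 3.80 on the other arrays. Xist was between 771 and 3358 in Slc26a4+/+ and between 5529.6 and 5863 in Slc26a4-/-, and the Y-linked Eif2s3y between 639.9 and 1541 and between 3.10 and 3.60, which is a difference in the sex of the pools that cannot be told apart from genotype. Of 14 macrophage markers, 11 were higher in Slc26a4-/- by limma. Signals of different probe sets also depend on the probes, so levels are compared between genotypes and not between genes.

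Most of these transporter genes showed no difference that passed the test. Log2 signals were compared by limma over all probe sets with Benjamini-Hochberg adjustment, and at an adjusted p under 0.05 a total of 1.73% of all probe sets passed, 1.19% higher and 0.54% lower in Slc26a4-/- (535 and 243 probe sets, or 359 and 89 with each array centred on its median). Among the members 1 of 94 passed, or 1.06%, which lies near this background. Of the 41 genes, each by its brightest probe set, 1 passed, or 2.44%, against 2.68% of all genes (1.88% higher and 0.803% lower). It was Atp6v0e2, and it was higher. An unadjusted p under 0.05 was reached by 7 of 47 V-ATPase, 5 of 22 SLC4 and 3 of 25 SLC9 probe sets, against 5365 of 45037 or 11.9% overall. The 3 arrays of a genotype lay wholly above or below those of the other in 20 of the 94, 11 higher and 9 lower, or 21.3% against 17.9% of all probe sets. The median log2 fold change over probe sets, dim ones included, was 0.05 for the V-ATPase, -0.30 for SLC4 and -0.02 for SLC9, beside -0.06 for all probe sets. Over genes, each by its brightest probe set, the medians were 0.05, 0.12 and 0.38, so the sign for SLC4 and SLC9 depends on the unit. In total 50 of the 94 were detected, 34 of the V-ATPase, 6 of SLC4 and 10 of SLC9, and 36 were below background on all 6 arrays. Each gene is represented by its brightest probe set, that of the largest mean log2 signal, unless another is named.

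**Figure D1:**
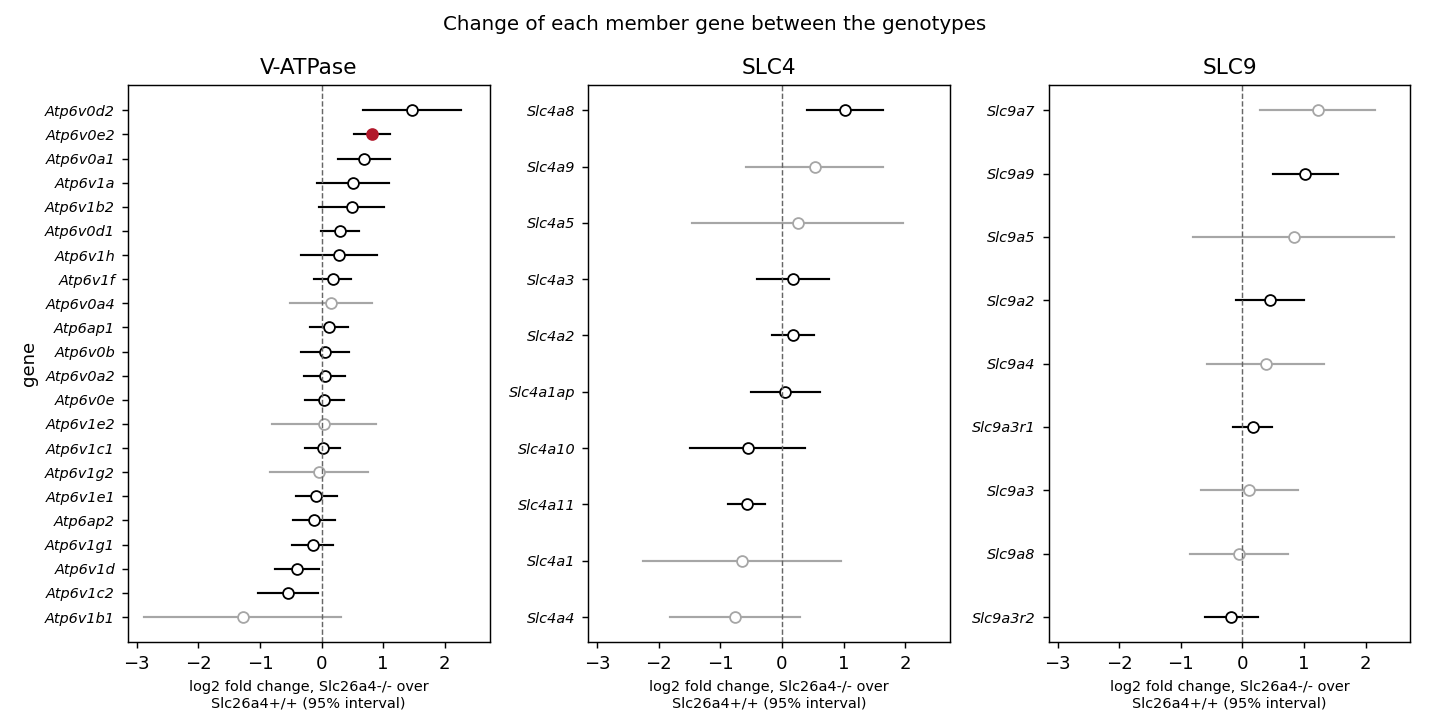
Each point is 1 gene, plotted on the x axis by its limma log2 fold change, Slc26a4-/- over Slc26a4+/+, and a line for the 95% interval (3 arrays per genotype). Black marks detected genes, grey the others, and the filled red point is Atp6v0e2 at 0.83, the 1 gene that passed an adjusted p of 0.05.

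The widespread V-ATPase subunits, those that make up the pump in most cells, were clearly expressed in both genotypes. All 15 measured widespread and accessory genes were detected, 8 of V1, 5 of V0 and 2 accessory, and none passed the test in limma (adjusted p between 0.130 and 0.975). Their log2 fold changes ran from -0.40 to 0.69 with a median of 0.06. For 12 of the 15 the 95% interval of the change lay within 2-fold in either direction, and for 9 of them within 1.5-fold. The exceptions to 2-fold were Atp6v0a1, Atp6v1a and Atp6v1b2, whose intervals reached above it.

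In the V1 sector, Atp6v1g1, a subunit of the peripheral stalk, stood at 12911 ± 1818 in Slc26a4+/+ against 11608 ± 270.2 in Slc26a4-/- (mean ± SD of 3 arrays). Atp6v1e1, which pairs with it in the stalk, had 7464 ± 1079.5 and 6997 ± 293. Their intervals for the log2 fold change were -0.47 to 0.19 and -0.41 to 0.25. Another probe set of Atp6v1e1, below background on all 6 arrays, read 85.2, 189 and 220.5 in Slc26a4+/+ against 15.2, 43.3 and 36.7 in Slc26a4-/- (limma, adjusted p = 0.0887), and no fold is given for it. Atp6v1d, a subunit of the central rotor, had the lowest log2 fold change of the widespread subunits. Its signals were 6372, 8528 and 9205 in Slc26a4+/+ against 5925, 6258 and 5834 in Slc26a4-/-. The groups did not overlap, yet the lowest Slc26a4+/+ array, replicate 1, lay close to the Slc26a4-/- arrays. By limma the log2 fold change was -0.40 (SE 0.16, adjusted p = 0.347), and it passed without that array, at -0.56 (adjusted p = 0.0287). The Slc26a4+/+ arrays then left were those with the high Gapdh ratios, and the part of RNA quality was not tested. With replicate 1 as the sole Slc26a4+/+ array the log2 fold change was -0.086. The other probe sets of Atp6v1d, also detected, had log2 fold changes of -0.12 and -0.07 with all arrays (limma, adjusted p = 0.780 and 0.894).

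In the V0 sector, Atp6v0a1 codes for an isoform of the large a subunit, which guides the protons through the membrane. Its signals were 711, 1026 and 714.5 in Slc26a4+/+ against 1496, 1244 and 1169 in Slc26a4-/-. All 3 Slc26a4-/- arrays were above all 3 Slc26a4+/+ arrays, with a log2 fold change of 0.69 (SE 0.19) that did not pass (limma, adjusted p = 0.130). A second probe set of the gene went the other way, at 241, 351 and 1616 in Slc26a4+/+ against 229, 123.5 and 307 in Slc26a4-/-, where replicate 3 of Slc26a4+/+ alone stood high. Atp6v0a2, the isoform of Golgi and endosomes, differed little, with a log2 fold change of 0.05. Atp6v0d1, which joins V0 to the rotor in most cells, had 3122, 3529.5 and 2782 in Slc26a4+/+ against 3775, 4129 and 3709 in Slc26a4-/- (log2 fold change 0.31, SE 0.14, adjusted p = 0.430).

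Both accessory genes were at like signals in the genotypes. Atp6ap2, the (pro)renin receptor, which takes part in the assembly of the pump, had 19623 ± 2745 in Slc26a4+/+ and 17917 ± 461 in Slc26a4-/-, with an interval for the log2 fold change of -0.46 to 0.22. Atp6ap1, the accessory subunit Ac45, had a log2 fold change of 0.12. These are genes of the X chromosome, and the pools differed in sex.

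**Figure D2:**
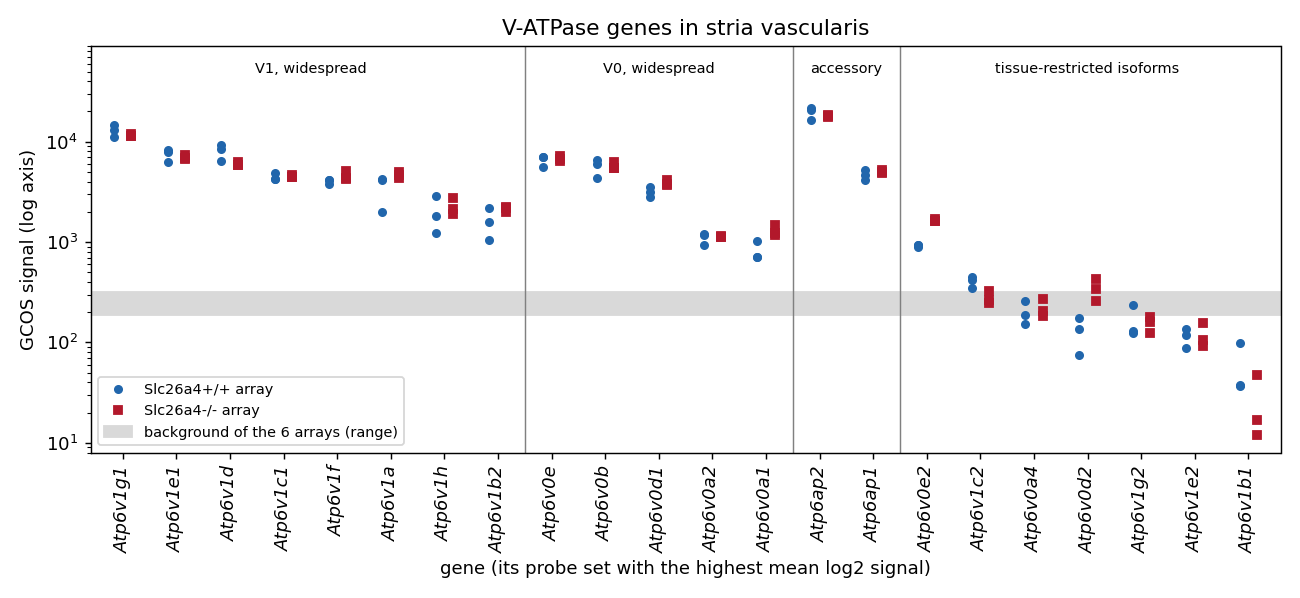
Signals of the 22 V-ATPase genes on each array (y axis, log scale), grouped by sector and by tissue range, with circles for Slc26a4+/+ and squares for Slc26a4-/- arrays (3 each). The grey band is the range of background, 187 to 319. All widespread and accessory genes lie above it, and of the restricted isoforms Atp6v0e2 lies above it on every array, at 903 to 941 in Slc26a4+/+ and 1609 to 1684 in Slc26a4-/-.

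Atp6v0e2 rose. It codes for an isoform of the small e subunit of V0, described chiefly from brain. Its signals were 903, 941 and 938 in Slc26a4+/+ against 1684, 1639 and 1609 in Slc26a4-/-. The arrays of each genotype lay close together and far from those of the other. The mean rose from 927 ± 21.4 to 1644 ± 37.5 (SD, n = 3), a 1.77-fold difference with a log2 fold change of 0.83 (SE 0.13, interval 0.53 to 1.12, limma adjusted p = 0.0130). Its paralog Atp6v0e, the widespread e subunit, had 5660, 7092.5 and 7069 in Slc26a4+/+ against 6461, 7142 and 6723 in Slc26a4-/-, and these overlapped (log2 fold change 0.04, interval -0.27 to 0.36, adjusted p = 0.942). Atp6v0e2 did not pass without Slc26a4+/+ replicate 2 (adjusted p = 0.0542) or without any 1 of the Slc26a4-/- arrays (0.100 to 0.104), with no variance trend (0.193), with Xist added as a covariate (0.487) or by the methods' t-test, paired by replicate number (0.405), while its log2 fold change stayed between 0.79 and 0.91 over these and the other alternatives. With replicate 1 as the sole Slc26a4+/+ array, which leaves out both arrays with high Gapdh ratios, it passed at 0.86 (adjusted p = 0.0171). Macrophage markers moved with the genotype on these arrays, with a summed signal of 6658 to 8914.5 in Slc26a4+/+ and 38001 to 40400.0 in Slc26a4-/-. Other markers were higher by limma as well, 4 of 7 of spiral ligament fibrocytes, 2 of 8 of intermediate cells and 1 of 5 of spindle and root cells. This compares with 1.88% of all genes. Of 8 marginal cell markers 2 were lower, and 0 of 5 basal cell markers passed. The part of any of these cell types in the rise was not tested.

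The promoters of the 2 paralogs are shown because 1 rose and the other did not. They come from RefSeq (GRCm38.p6) and run from 250 bases before to 50 after the annotated start, 5′ to 3′ on the strand of the gene. Capitals mark CACGTG, the core of the sites that the lysosomal regulators TFEB and MITF are known to bind, which reads the same on both strands. The promoter of Atp6v0e2, chr6:48537319-48537618 on the plus strand, holds none, and that of Atp6v0e, chr17:26676146-26676445 on the plus strand, holds 1.
Atp6v0e2: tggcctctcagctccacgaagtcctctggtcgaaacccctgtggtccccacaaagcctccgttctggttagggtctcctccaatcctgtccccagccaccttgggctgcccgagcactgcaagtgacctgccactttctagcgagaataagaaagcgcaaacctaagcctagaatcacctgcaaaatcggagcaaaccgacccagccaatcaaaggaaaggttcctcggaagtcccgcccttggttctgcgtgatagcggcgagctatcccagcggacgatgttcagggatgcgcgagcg
Atp6v0e: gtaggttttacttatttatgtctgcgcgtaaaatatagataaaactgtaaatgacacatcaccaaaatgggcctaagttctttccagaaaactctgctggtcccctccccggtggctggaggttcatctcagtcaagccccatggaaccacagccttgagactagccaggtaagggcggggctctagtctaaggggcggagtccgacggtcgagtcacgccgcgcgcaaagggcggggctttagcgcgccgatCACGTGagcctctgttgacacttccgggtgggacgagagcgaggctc

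The same motif was searched in every promoter in the table. CACGTG was found in 7.15% of all 32851 promoters, or for 8.09% of 27025 genes, and in 4 of the 16 V-ATPase genes, 0 of the 7 SLC4 genes and 1 of the 7 SLC9 genes that matched an entry by symbol. The longer palindrome of the CLEAR element, which contains it, was in 0.326% of all promoters and in none of the 30 matched genes. A match describes the letters alone. The other V-ATPase genes with the motif were all widespread subunits, and 46 bases around it, or around the second of 2 copies in Atp6v0b, are shown for each. They lie on the minus strand at chr4:117887322-117887367 for Atp6v0b, chr8:105566042-105566087 for Atp6v0d1 and chr16:44139365-44139410 for Atp6v1a.
Atp6v0b: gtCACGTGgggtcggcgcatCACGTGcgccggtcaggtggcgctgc
Atp6v0d1: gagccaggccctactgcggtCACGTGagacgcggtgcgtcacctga
Atp6v1a: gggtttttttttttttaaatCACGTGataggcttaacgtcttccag
None of the 4 V-ATPase genes with CACGTG passed in limma. By their brightest probe sets the log2 fold changes were 0.06 for Atp6v0b, 0.31 for Atp6v0d1, 0.51 for Atp6v1a and 0.04 for Atp6v0e. Further detected probe sets had 0.34 and 0.32 for Atp6v0b and -0.13 for Atp6v1a, so these values depend on the probe set.

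Of the other 6 restricted isoforms 2 were detected. Atp6v0d2, an isoform of the d subunit best known from osteoclasts, macrophages and kidney, stayed below background in all Slc26a4+/+ arrays and exceeded it in all Slc26a4-/- arrays. Its signals were 75.4, 135 and 174 in Slc26a4+/+ against 259.6, 425 and 338.5 in Slc26a4-/-. The groups did not overlap, and the observed means differed by at least 1.30-fold, set against background, with a limma adjusted p of 0.0885. A second probe set pointed the same way with 36.0, 34.7 and 100.4 against 171.5, 180.1 and 171.3, all below background (adjusted p = 0.127). The first passed without Slc26a4+/+ replicate 3 (adjusted p = 0.0474), where the second passed as well (adjusted p = 0.0202). With any other array left out the first did not pass (limma, adjusted p between 0.0736 and 0.365). Its log2 fold change of the signals was 1.47, and 2.15 against replicate 1 as the sole Slc26a4+/+ array.

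The macrophage markers that moved with Atp6v0d2 included Cd68, at 125, 174 and 211 in Slc26a4+/+, below background, and 1313, 1441 and 1278 in Slc26a4-/-, and Lyz2, at 572, 482 and 495 against 10473, 9718 and 10180.0. Of the 14, all but Itgam were detected. Their part in the values of Atp6v0d2 was not tested, nor was that of the other cell types whose markers differed. Of 6 osteoclast markers none passed in limma, with 2 at an unadjusted p under 0.05, and the summed signal was 535 to 632 in Slc26a4+/+ and 883 to 1013 in Slc26a4-/-. Of these, Calcr, Ocstamp and Oscar were below background on all 6 arrays, Dcstamp was above it on 1 Slc26a4-/- array, Acp5 on all 3 Slc26a4-/- arrays, and Ctsk on those and 1 Slc26a4+/+ array, and their part in the values of Atp6v0d2 was not tested.

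The other restricted isoform above background was Atp6v1c2, a C subunit of kidney and lung, with 346, 422 and 446.5 in Slc26a4+/+ against 265, 322 and 244.5 in Slc26a4-/- (log2 fold change -0.55, SE 0.22, limma adjusted p = 0.343). Atp6v1b1, the B subunit of kidney intercalated cells whose loss causes renal acidosis with deafness, was below background on all 6 arrays, at 36.9, 38.0 and 99.2 in Slc26a4+/+ against 47.5, 12.0 and 17.0 in Slc26a4-/-. Atp6v0a4, the a subunit that partners with it in those cells and whose loss also causes deafness, was above background on 1 Slc26a4-/- array alone, at 190, 153 and 258 in Slc26a4+/+ against 182, 274 and 205 in Slc26a4-/-. The isoforms Atp6v1e2 of testis and Atp6v1g2 of brain were below background on all 6 arrays.

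**Figure D3:**
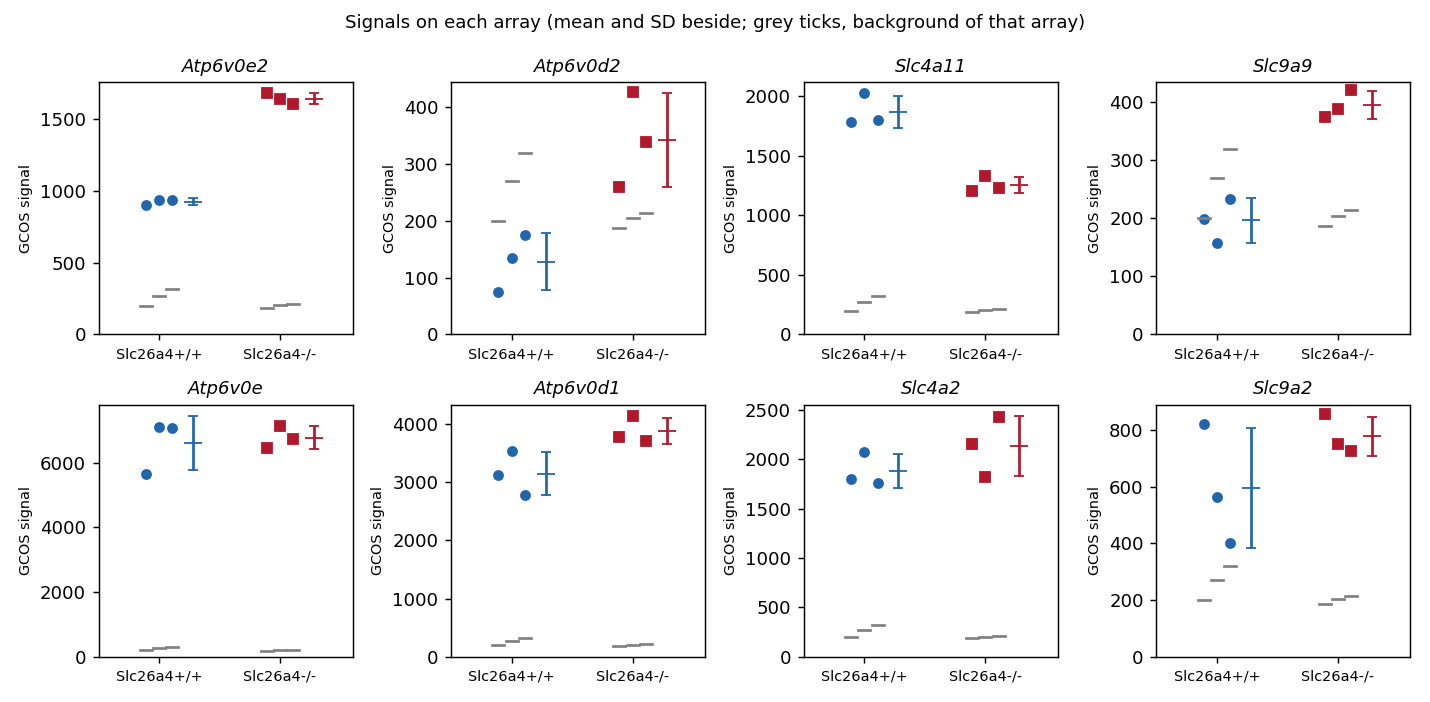
Signals of 8 genes on each array (y axis, linear and starting at 0), with circles for Slc26a4+/+ and squares for Slc26a4-/-, the mean ± SD of 3 arrays beside them and the background of each array as a grey tick. In the upper row the genotypes do not overlap for Atp6v0e2, Atp6v0d2, Slc4a11 and Slc9a9, and Atp6v0e2 alone passed the test. The lower row shows a relative of each, with Atp6v0e, Slc4a2 and Slc9a2 overlapping and Atp6v0d1 not overlapping, at a log2 fold change of 0.31.

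No SLC4 probe set passed in limma, and 5 of 22 had an unadjusted p under 0.05. The smallest p was that of Slc4a11, a transporter that conducts H+ and water and whose loss in mice and humans affects both cornea and hearing, and which in the cochlea is known from spiral ligament fibrocytes. Its signals were 1780 on replicate 1, 2024.5 on replicate 2 and 1801 on replicate 3 of Slc26a4+/+, against 1202, 1331 and 1229 in Slc26a4-/-. All Slc26a4-/- arrays were below all Slc26a4+/+ arrays, with a log2 fold change of -0.57 (SE 0.13, interval -0.87 to -0.27, adjusted p = 0.0750). It passed without Slc26a4+/+ replicate 1 (adjusted p = 0.0401) and with no other array left out (limma, adjusted p between 0.0597 and 0.358). Nor did it pass with each array centred on its median (0.332) or with no variance trend (0.372). The fit without replicate 1 keeps only the Slc26a4+/+ arrays with the high Gapdh ratios, and the part of RNA quality was not tested. Against replicate 1 as the sole Slc26a4+/+ array the log2 fold change of Slc4a11 was -0.51. Genes of spiral ligament fibrocytes moved with the genotype the other way, 4 of 7 higher by limma, with a summed signal of 18878 to 21856 in Slc26a4+/+ and 26721.5 to 28523 in Slc26a4-/-, and their part in the values of Slc4a11 was not tested.

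The Cl-/HCO3- exchangers of the SLC4 class, the closest to pendrin in what they carry, are AE1 to AE3. Slc4a2 (AE2), the widespread exchanger of basolateral membranes, had 1796.5, 2075 and 1759 in Slc26a4+/+ against 2149, 1824 and 2431 in Slc26a4-/-. These overlapped, and the interval of the log2 fold change was -0.16 to 0.52 (limma, adjusted p = 0.716). Slc4a3 (AE3) of excitable tissue was nearer to background, at 260.1, 342 and 238 in Slc26a4+/+ against 380.3, 348 and 235 in Slc26a4-/-. Slc4a1 (AE1), band 3 of red blood cells, was below background on all 6 arrays with each of its 3 probe sets. Of 4 erythroid markers measured, 0 passed in limma and 1 had an unadjusted p under 0.05, and the summed signal was 825 to 1620 in Slc26a4+/+ and 670.5 to 872 in Slc26a4-/-. Alas2, the first enzyme of heme synthesis in red cells, exceeded background on all 3 Slc26a4+/+ arrays and 1 Slc26a4-/- array, Sptb, a spectrin of the red cell membrane, on all 6, and Hba-a1, a globin chain, and Epb42 on none. Probe sets with several symbols were not used for marker genes, and no beta globin gene was among the 4. Globin RNA as a whole is therefore not measured by these values.

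The Na+-coupled HCO3- transporters load base into cells, and the 4 measured had low signals, at most 632 on any array with their brightest probe sets. Slc4a8 (NDCBE), an exchanger of Na+ and HCO3- for Cl-, was below background on every Slc26a4+/+ array, at 156, 159 and 106.5, and above it on every Slc26a4-/- array, at 301, 265 and 276. The groups did not overlap, and the observed means differed by at least 1.09-fold against background (limma, adjusted p = 0.128). Its other 4 probe sets were below background on at least 5 of the 6 arrays and had overlapping groups. Slc4a4 (NBCe1), the electrogenic cotransporter, had 184, 204 and 463 in Slc26a4+/+ against 244, 82.2 and 178 in Slc26a4-/-, and its brightest probe set was above background on 1 array of each genotype. A dimmer probe set of Slc4a4, below background on all 6 arrays, had a smaller p (adjusted p = 0.220). Slc4a10 (NCBE), an Na+-coupled transporter of neurons and choroid plexus, ranged from 180 to 632 in Slc26a4+/+ and from 184 to 315 in Slc26a4-/- (adjusted p = 0.670). Slc4a5 and Slc4a9 were below background on all 6 arrays, and Slc4a1ap had 382 ± 81.1 in Slc26a4+/+ and 398 ± 91.8 in Slc26a4-/- (SD, n = 3).

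No SLC9 probe set passed in limma, and 3 of 25 had an unadjusted p under 0.05. Among the exchangers of organelles, which vent protons from endosomes and the Golgi, Slc9a9 (NHE9) was below background on every Slc26a4+/+ array, at 198, 156 and 233, and above it on every Slc26a4-/- array, at 374, 387 and 420 (419.8). The groups did not overlap, and the observed means differed by at least 1.52-fold against background. Slc9a9 had a log2 fold change of the signals of 1.02 (SE 0.24, interval 0.50 to 1.55, limma adjusted p = 0.0699). It passed without Slc26a4+/+ replicate 3 (adjusted p = 0.0358) and with no other array left out (limma, adjusted p between 0.0579 and 0.356). The part of macrophages, or of the other cell types whose markers differed, in the values of Slc9a9 was not tested. Its 3 other probe sets were below background on all 6 arrays, and 1 of them read lower in Slc26a4-/-, at 89.1, 123 and 73.1 against 13.3, 35.3 and 51.9. Slc9a7 (NHE7) of the trans-Golgi network was below background on all 6 arrays, with 75.4, 106 and 43.3 in Slc26a4+/+ against 171, 159 and 163 in Slc26a4-/- (adjusted p = 0.252), so no fold is given. Slc9a7 lies on the X chromosome, and sex and genotype cannot be told apart for it. Slc9a8 (NHE8) was below background on all 6 arrays with 3 of its 4 probe sets and above it on 1 Slc26a4-/- array with the other.

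Of the plasma membrane exchangers measured, Slc9a2 (NHE2), an apical isoform of epithelia, was the one above background. Its signals were 819, 565 and 400.5 in Slc26a4+/+ against 855, 749.8 and 727 in Slc26a4-/-, so that the Slc26a4+/+ arrays spread widely and reached into the range of the others. The log2 fold change was 0.44 (SE 0.25, interval -0.11 to 0.99, limma adjusted p = 0.540). Replicates 2 and 3, the lower 2 of Slc26a4+/+, were those with the high Gapdh ratios, and against replicate 1 as the sole Slc26a4+/+ array the log2 fold change was -0.079. Slc9a3 (NHE3), the absorptive isoform of kidney and gut, Slc9a4 (NHE4) of stomach and Slc9a5 (NHE5) of neurons were below background on all 6 arrays. The NHE scaffolds were well above it. Slc9a3r1 (NHERF1) had 2327 ± 221 in Slc26a4+/+ and 2623 ± 263 in Slc26a4-/-, and Slc9a3r2 (NHERF2) had 1698 ± 382 and 1477 ± 180.0 (SD, n = 3), with adjusted p of 0.705 and 0.783.

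Probe sets of the same gene did not always agree. Of 13 genes with several detected probe sets, 8 had log2 fold changes of both signs. Over the 34 detected V-ATPase probe sets, Slc26a4+/+ replicate 3 was the lowest of the 6 arrays in 14, replicate 1 in 10 and replicate 2 in 3, and each of these was the highest in 8. An example is Atp6ap2, since probe set 3 by brightness read 7609, 5363 and 1958.5 in Slc26a4+/+ against 7472, 6072 and 6512 in Slc26a4-/-, while its brightest had 16489, 20782 and 21598 and 17935, 18369 and 17448. For Atp6v1a, the catalytic subunit of V1, 1 probe set read 4288, 4167 and 2002 in Slc26a4+/+ against 5035, 4663 and 4355 in Slc26a4-/-, and the other read 4088, 2992 and 3895 and 3269, 3033 and 3679. The part of RNA quality in these differences was not tested.

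**Figure D4:**
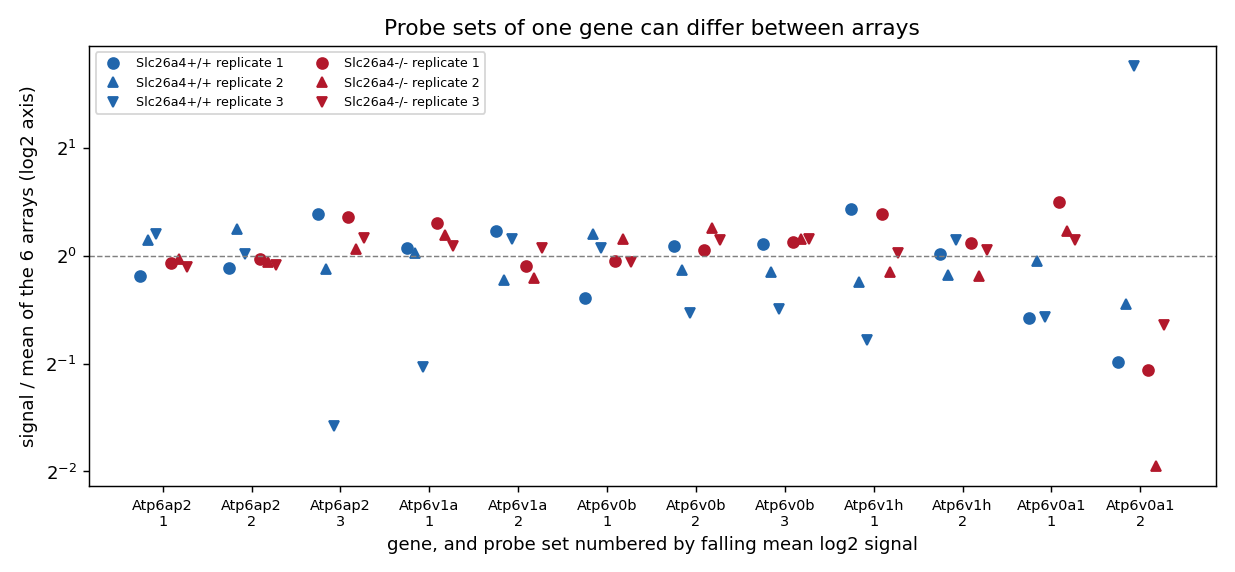
Signal of each probe set divided by its mean over the 6 arrays (y axis, log2 scale) for probe sets of 5 V-ATPase genes that were above background, numbered within a gene by falling mean log2 signal. Blue marks Slc26a4+/+ and red Slc26a4-/-, and the symbol gives the replicate. Slc26a4+/+ replicate 3 stands at 0.336 for probe set 3 of Atp6ap2 and at 3.38 for probe set 2 of Atp6v0a1.

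Genes that assemble or bind these transporters were listed apart from the prefixes. Of 12 genes for V-ATPase assembly and partners, all were above background and 0 passed in limma, with 2 at an unadjusted p under 0.05 and a median log2 fold change of -0.06. Tcirg1, the a3 subunit of the pump in osteoclasts and lysosomes, had 1073, 1163 and 1258 in Slc26a4+/+ against 1193, 1454 and 1269 in Slc26a4-/- (adjusted p = 0.737). Of 15 acid-base partners, 0 passed in limma, with 2 at an unadjusted p under 0.05 and a median log2 fold change of -0.04. The gene of this list closest to passing was Tesc, which codes for tescalcin, a binding protein of NHE1, with 10271, 15853 and 20112 in Slc26a4+/+ against 7561, 7500.2 and 6424 in Slc26a4-/-. All Slc26a4-/- arrays were below all Slc26a4+/+ arrays, with a log2 fold change of -1.06 (limma, adjusted p = 0.0518). Tesc passed without Slc26a4+/+ replicate 1 (adjusted p = 0.00323), its lowest Slc26a4+/+ array, and with no other array left out. Leaving out replicate 1 keeps only the Slc26a4+/+ arrays with the high Gapdh ratios, and the part of RNA quality was not tested. The 8 marginal cell markers had negative log2 fold changes as well, 2 of them lower by limma, and their part in the values of Tesc was not tested. Car2, a cytosolic carbonic anhydrase, had a log2 fold change of 0.01, and Foxi1, the transcription factor of acid-secreting cells, was below background on all 6 arrays. The methods' t-test, paired by replicate number, called 0 of 45037 probe sets after Benjamini-Hochberg adjustment and, at its own threshold without adjustment, 4 of 47 V-ATPase, 3 of 22 SLC4 and 2 of 25 SLC9 probe sets, against 3980 or 8.84% of all probe sets.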

How the data were processed

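The deposited values are intensities on a linear scale, 1 for each probe set on an array, which the authors computed with GCOS, background-corrected and scaled by array. RNA was pooled from 2 animals per array and amplified in 2 rounds. No source used here gives the GCOS version or the scaling target. Of 45101 probe sets 64 controls were left out. Symbols came from the platform annotation (1 symbol for 34945 probe sets, several for 932, none for 9160). Of the 94 probe sets, 13 carry the suffix x or s, which marks probes shared with other transcripts. Signals under 1 (172 values) were raised to 1 before taking log2, and genotypes were compared by limma 3.58.1 in R 4.3.3 (lmFit, eBayes with a trend), two-sided, with Benjamini-Hochberg adjustment over all probe sets. The test was checked on simulated data with changes planted in 200 bright probe sets. It found 57% of log2 changes of 1 and 99% of those of 2, with 13 false calls. The simulated arrays had the same spread in both genotypes. On the real arrays the spread could differ, as for Atp6ap2 with an SD of 2745 in Slc26a4+/+ and 461 in Slc26a4-/-, so these figures may not hold for them. The share found among dim probe sets was not measured. Arrays were grouped by the titles of the samples. Whether arrays beyond the pools came from separate litters is not stated, so p-values measure the spread between these arrays, whose number limits the precision. A bound sets the brighter genotype's mean log2 signal against, on each array of the other, the higher of background and the gene's signal. Such a bound describes the observed means and leaves out the spread between arrays.

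Members and lists were chosen with earlier results of these data known. Named were, in each class, genes past the threshold, the 4 smallest p-values, the 4 brightest genes, and 12 genes of known role, of which 9 were measured here. Atp6v0a2, Atp6v0b, Atp6v0d1, Atp6v0e, Atp6v1a, Atp6v1b2, Atp6v1c2, Atp6v1e2, Atp6v1g2, Atp6ap1, Slc4a5, Slc4a9, Slc9a4, Slc9a5, Slc9a8, Tcirg1, Tesc, Car2 and Foxi1 were named after their values were seen.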

Additional observations from a re-analysis of the deposited data

How the results depend on the processing

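Precision rests on 3 arrays per genotype and, for dim genes, on the distance to background. Over all probe sets 778 passed (535 higher, 243 lower), against 448 with each array centred on its median (359 higher, 89 lower), 114 without the trend, 4084 with array weights, 27 with Xist as a covariate, 0 by the methods' t-test, 1304 with replicate 1 as the sole Slc26a4+/+ array (chosen after seeing the data; that array is assumed to vary like the others) and 219 to 1714 with 1 array left out. The V-ATPase count of 1 became 0 without the trend, 0 with the Xist covariate, 0 by the t-test, 6 with array weights, 3 with replicate 1 as the sole Slc26a4+/+ array and 0 to 4 with 1 array left out, being 0 without Slc26a4+/+ replicate 2 or any 1 Slc26a4-/- array. The SLC4 count of 0 became 1 with the filter on background (Slc4a11, adjusted p = 0.0493), 3 with array weights and 0 to 1 with 1 array left out. The SLC9 count of 0 became 1 with quantile normalization, 1 with that filter (Slc9a9 in both), 2 with array weights and 0 to 1 with 1 array left out. For V-ATPase partners it became 1 with array weights and 1 with replicate 1 as the sole Slc26a4+/+ array (Oxr1 in both). For acid-base partners it became 1 with centring on the 75th percentile, 1 with quantile normalization and 1 with the filter (Tesc each time), 3 with array weights and 0 to 2 with 1 array left out. Whether the replicate numbers mark matched pools is not stated. Deviations from the group means correlated at 0.09, 0.03 and 0.03 between arrays of the same number. With so few arrays such values cannot decide whether the pools were matched. With the replicate number as a block 832 of all and 3 V-ATPase probe sets passed (Atp6v0e2, Atp6v0d2 and the dim probe set of Atp6v1e1), with 0 for the other classes and lists.

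Without Slc26a4+/+ replicate 1 dimmer probe sets of Atp6v1e1, Atp6v1b2 and Slc9a3r2 were lower in Slc26a4-/-, as was Ezr of the acid-base partners (limma, adjusted p = 0.0431, 0.0260, 0.0489 and 0.0242). That fit keeps only the Slc26a4+/+ arrays with the high Gapdh ratios, and 1714 of all probe sets passed in it, against 778 with all arrays. The sign of some log2 fold changes that had not passed turned. With array weights it was 0.00019 for Slc4a1, 0.065 for Slc4a10, -0.088 for Slc4a3, -0.15 for Slc4a1ap and -0.016 for Slc9a3. With the Xist covariate it was 0.25 for Slc4a1, -0.058 for Slc4a2, 1.03 for Slc4a10, -0.24 for Slc4a3, -0.46 for Slc4a1ap and -0.28 for Slc9a3. With quantile normalization it was 0.083 for Atp6v1g1, 0.18 for Atp6ap2 and 0.013 for Atp6v1e1, and with replicate 1 as the sole Slc26a4+/+ array 0.072, 0.12 and 0.16, beside -0.079 for Slc9a2 and 0.22 for Slc9a3r2. With 1 array left out it ran from -1.17 to 0.14 for Slc4a1, from -0.027 to 0.35 for Atp6v0a4, from -0.12 to 0.26 for Slc4a1ap and from -0.17 to 0.32 for Slc9a3. The cause was not tested.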

Other observations

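Lysosomes are acidified by the V-ATPase, and 13 genes of lysosomal membranes and enzymes were measured beside it. All 13 were above background, 0 passed in limma, and 3 had an unadjusted p under 0.05, against 11.9% of all probe sets. The median log2 fold change was 0.17. In 6 of the 13 the genotypes did not overlap, each time higher in Slc26a4-/-, against 17.9% of all probe sets, dim ones included. Ctsd, the aspartic protease cathepsin D, had the largest log2 fold change of the list, with signals of 8282, 9896 and 9605 in Slc26a4+/+ against 13149, 13129 and 13087 in Slc26a4-/-. All Slc26a4-/- arrays were above all Slc26a4+/+ arrays (log2 fold change 0.51, limma adjusted p = 0.120). Lamp1, a main glycoprotein of the lysosomal membrane, had 12330.5, 14784 and 18673 in Slc26a4+/+ against 14476, 14481 and 13617 in Slc26a4-/-, which overlapped. Clcn7, the Cl-/H+ exchanger that works beside the pump, had 898, 1057 and 925 in Slc26a4+/+ against 1067, 1155 and 1127 in Slc26a4-/- (adjusted p = 0.611). Ctsd, Lamp1 and Clcn7 were named after their values were seen.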
